A study of Mus musculus with 4 samples.

Results

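The heat shock proteins described here are 10 mouse chaperone genes, taken from the 13108 genes read by 22626 Affymetrix probe sets (a probe set is a group of probes that reads one transcript). The rule that picks them uses gene names and no measured value, although earlier results of these data were known when the list was drawn up. They were found in the deposited table by gene symbol or, for 5 of their 20 probe sets, by gene ID where the table writes an older symbol. They are the inducible HSP70 genes Hspa1a and Hspa1b, the constitutive HSP70 gene Hspa8, the HSP40 genes Dnajb1 and Dnaja1, the HSP90 genes Hsp90aa1 and Hsp90ab1, the HSP110 gene Hsph1, the small heat shock protein gene Hspb1 and the HSP60 gene Hspd1. The products of 9 of them work mainly in the cytosol and nucleus. Hspd1 encodes the chaperonin of the mitochondrial matrix, so it is a heat shock gene but not a cytosolic one.

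Each of 4 groups held 1 array. In the cell experiment, primary adipocytes cultured from mouse visceral fat received 10 µM forskolin or the solvent DMSO, and RNA was taken at 2 h. Forskolin is a plant diterpene that switches on adenylyl cyclase and so raises cAMP. The diet experiment used white fat, the epididymal pads of mice fed a diet with 60% fat over 12 weeks or normal chow; the column headers of the fat arrays carry the prefix WT. The sources used here do not state the strain, sex or age of the animals or whether RNA was pooled. A whole fat pad holds blood vessel, immune and connective tissue cells besides adipocytes, so fewer cells of a type and less RNA per cell cannot be told apart in it. Because a group is 1 array, the differences below compare 2 arrays, have no check against replicates and carry no test. "Higher" and "lower" describe those arrays only.

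The values are intensities on a linear scale. Array medians were 237.3 with forskolin, 236.5 with vehicle, 314.4 in high fat pads and 265.7 in chow pads. The adipocyte gene Fabp4 had 11401 with forskolin, 10823 with vehicle, 12790 in high fat pads and 12624 in chow pads. Not every adipocyte marker was as level. Of 7 measured, 3 were at least 2-fold lower in vehicle culture than in chow fat, namely Lipe, Pparg and Cidec. The other 4 lay within 1.5-fold. Markers of other cell types differed in how far the cultures held them. The 6 endothelial markers summed to 473.4 with forskolin and 439.5 with vehicle, against 8120 and 10337 in high fat and chow fat, with the endothelial adhesion gene Pecam1 below the floor on both culture arrays. The 4 measured mesothelial markers summed to 160.7 with forskolin and 164.5 with vehicle. The 6 smooth muscle markers summed to 8511 with forskolin and 9421 with vehicle. Acta2 (5099 with forskolin and 5867 with vehicle) and Tagln (2719 and 2944) carried most of that sum. Of the 6, 4 were at least 2-fold lower in vehicle culture than in chow fat, such as Myh11 (37.84 and 937.5). The other 2 were at least 1.5-fold higher. The 9 macrophage markers summed to 5185 with forskolin and 4990 with vehicle. Csf1r (3189 with forskolin and 3293 with vehicle) and Cd14 (1072 and 813.7) carried most of the macrophage sum, and the defining marker Adgre1 had 237.3 and 228.3, against 6562 in high fat pads and 988.9 in chow pads.

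Heat shock proteins keep other proteins folded. HSP70 closes on unfolded stretches when it hydrolyses ATP, a step that HSP40 proteins stimulate, and lets go when HSP110 proteins and other factors exchange its nucleotide. HSP90 finishes the folding of kinases and steroid receptors, and small heat shock proteins hold clients until HSP70 takes them over. Under heat or proteotoxic stress the transcription factor HSF1 binds heat shock elements, which are alternating repeats of nGAAn and nTTCn, and induces the stress forms, while the constitutive forms are abundant in unstressed cells. In fat, chaperones have been studied for links to insulin signalling and obesity.

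Among the 9 members measured on both culture arrays, the inducible HSP70 gene Hspa1b and its partners Dnajb1 and Hsph1 were higher with forskolin. The other 6, namely Hspb1, Hspa8, Hsp90ab1, Hspd1, Hsp90aa1 and Dnaja1, lay within 1.5-fold of vehicle. Hspa1b and Dnajb1 were at least 2-fold higher, which is 2 of 9 members, and no member was 2-fold lower. Of 6704 genes at or above a level filter (the median level of all genes on at least one array of the pair), 1.22% were 2-fold higher and 0.134% 2-fold lower. Hsph1 passed 1.5-fold, which makes 3 of 9 at least 1.5-fold higher against 2.37% of all compared genes. None of the 9 was 1.5-fold lower, against 0.641%. The members' median log2 difference was 0.06, against -0.02 over the compared genes.

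**Figure D1:**
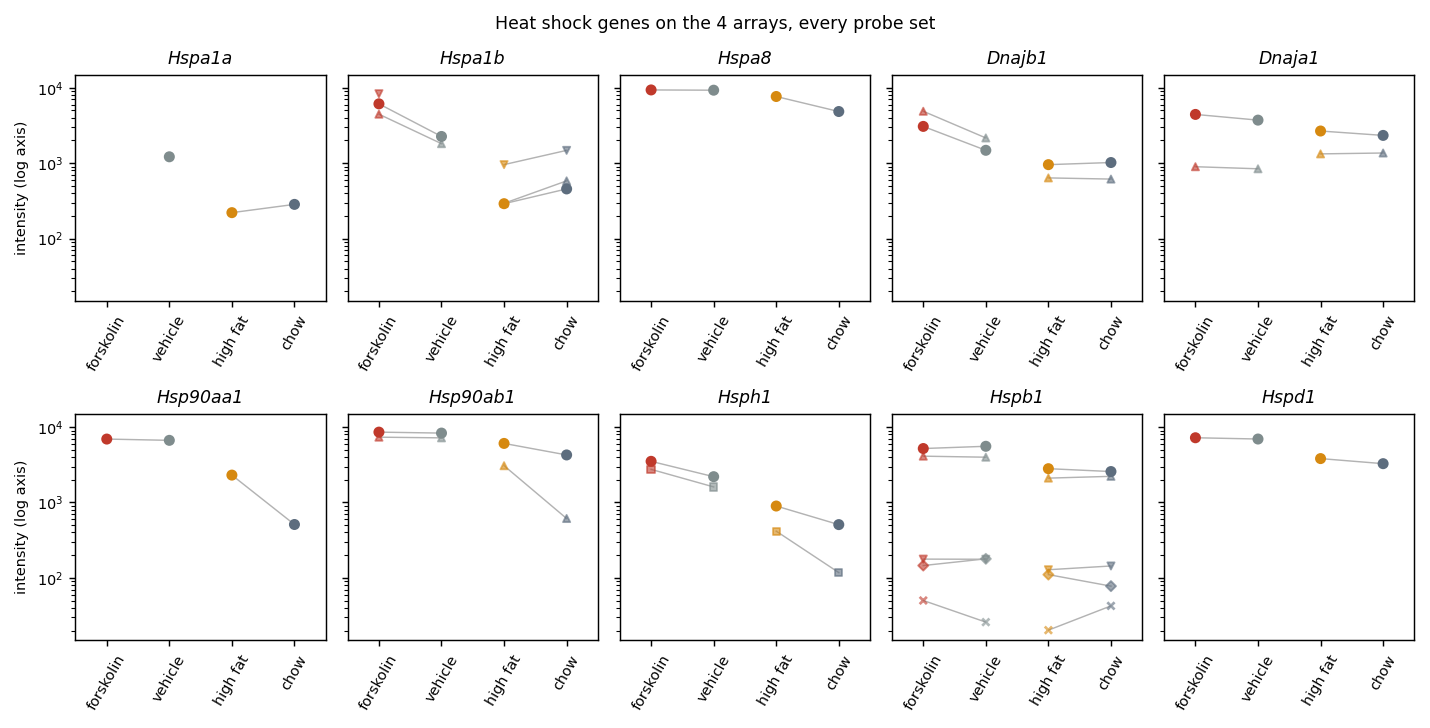
Intensity (log axis) of every probe set of the 10 genes on the 4 arrays, with forskolin left of vehicle and high fat left of chow. Circles mark the probe set used for the gene, other symbols its further probe sets, and lines join the arrays of one experiment. Hspa1b, Dnajb1 and Hsph1 step up with forskolin, and Hsp90aa1, Hsph1 and a probe set of Hsp90ab1 step up on the high fat diet.

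Hspa1b, one of the paired stress-inducible HSP70 genes, had an intensity of 6125 with forskolin and 2261 with vehicle by its main probe set. That is 2.71-fold higher, rank 55 of the 6704 compared genes. Its second probe set read 4466 with forskolin and 1814 with vehicle, 2.46-fold higher. The third read 8350 with forskolin and has an empty cell for vehicle. In the authors' deposited table the fold of the main probe set was 2.71 with bounds of 2.63 and 2.79. These bounds rest on 1 array per group, so they hold no variation between cultures.

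Hspa1a, the neighbouring inducible HSP70 gene, could not be compared, because its only probe set has an empty forskolin cell. It read 1215 with vehicle. The coding sequences of Hspa1a and Hspa1b are almost the same, so the probe sets of either gene may read both transcripts.

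Dnajb1, the stress-inducible HSP40 that starts the HSP70 ATPase cycle, had 3075 with forskolin and 1482 with vehicle by one probe set, 2.08-fold higher. Its other probe set read 4883 with forskolin and 2161 with vehicle, 2.26-fold higher. In the authors' deposited table the bounds were 1.9 and 2.28 for the first and 2.15 and 2.38 for the second. Hsph1, the HSP110 that exchanges nucleotide on HSP70, had 3513 with forskolin and 2199 with vehicle, 1.60-fold higher. Its second probe set gave 1.71-fold, at 2750 with forskolin and 1608 with vehicle. Every probe set of Hspa1b, Dnajb1 and Hsph1 that was measured on both arrays was therefore higher with forskolin.

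The HSC70 and HSP90 genes differed much less. Hspa8, which encodes the constitutive HSC70, had 9368 with forskolin and 9294 with vehicle, 1.01-fold higher. Hsp90aa1, the inducible HSP90 form, had 6939 and 6673, 1.04-fold higher with forskolin. Hsp90ab1, the constitutive HSP90 form, had 8576 and 8328, 1.03-fold higher with forskolin. These levels lie in the upper part of a scale whose highest values were 13964 with forskolin and 13686 with vehicle, and whether the brightest probe sets respond in proportion was not tested.

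Dnaja1, a constitutive HSP40, had 4434 with forskolin and 3725 with vehicle, 1.19-fold higher. Its second probe set, at 897.4 and 842.2, was 1.07-fold higher with forskolin. Hspb1, the small heat shock protein HSP25 of mice, had 5196 with forskolin and 5564 with vehicle, 1.07-fold lower, and its second brightest probe set was 1.03-fold higher. The other 3 probe sets of Hspb1 were dim. They read 177.2, 145.6 and 50.05 with forskolin, against 176.4, 178.8 and 25.84 with vehicle, and share no direction. Hspd1 had 7224 with forskolin and 6948 with vehicle, 1.04-fold higher.

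Another 4 probe sets carry the gene ID of Hspa8 or Hsp90aa1 together with those of similar loci and were kept apart. For Hspa8 and similar loci, 1 of them read 1088 with forskolin and 496.7 with vehicle, 2.19-fold higher. The other 2 of Hspa8 were 1.08-fold and 1.06-fold higher, and that of Hsp90aa1 was 1.10-fold higher. The probe set that stands apart is also the dimmest, and the sources used here do not say which locus it reads.

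**Figure D2:**
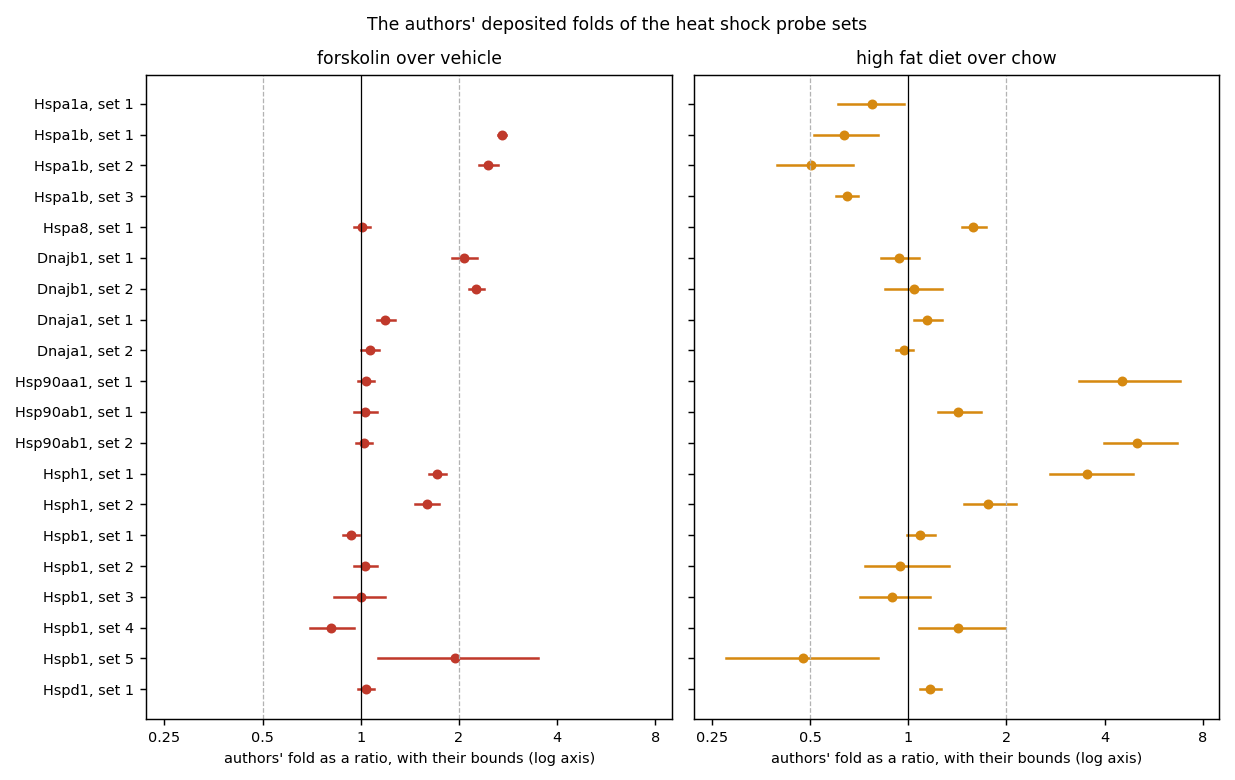
The authors' deposited fold of each member probe set as a ratio (log axis), forskolin over vehicle on the left and high fat diet over chow on the right, with bars for the authors' lower and upper bounds and dashed lines at 2-fold. Sets 1 and 2 of Hspa1b, Dnajb1 and Hsph1 lie above 1 with forskolin, and on the diet Hsp90aa1 and set 2 of Hsp90ab1 lie beyond 4-fold.

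Most genes of the wider chaperone network were nearly level with forskolin, as were 97.0% of all compared genes, which lay within 1.5-fold. The list of HSP70 and HSP90 cochaperones had 25 measured genes, of which 24 lay within 1.5-fold with forskolin (median log2 difference -0.01). The exception was Bag3, which links HSP70 to autophagy and is a known HSF1 target, at 3358 with forskolin and 2007 with vehicle, 1.67-fold higher. All 9 subunits of the cytosolic chaperonin TRiC, all 6 measured prefoldin genes, all 12 mitochondrial chaperones and all 13 measured endoplasmic reticulum chaperones lay within 1.5-fold. So did all 13 other J proteins and all 6 other HSP70 and HSP110 genes, led by Dnaja2 (1.25-fold higher) and Hspa4 (1.25-fold higher). Of 6 measured small heat shock protein genes 5 lay within 1.5-fold, and the other, 1.5-fold lower, was below the level filter.

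Hsf1 itself had 519.3 with forskolin and 583.3 with vehicle, 1.12-fold lower. All 4 measured genes of its list lay within 1.5-fold. HSF1 is known to be controlled mainly after translation. Of 9 other genes linked to the heat shock response, 1 was at least 2-fold higher, namely Rgs2, which is also an early cAMP target. The stress enzyme gene Hmox1 was 1.21-fold lower and Ier5, an HSF1 target, 1.16-fold higher. Of 17 measured immediate early genes, 11 passed 2-fold upward with forskolin and 2 passed 1.5-fold downward. Their part in the heat shock differences was not tested.

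**Figure D3:**
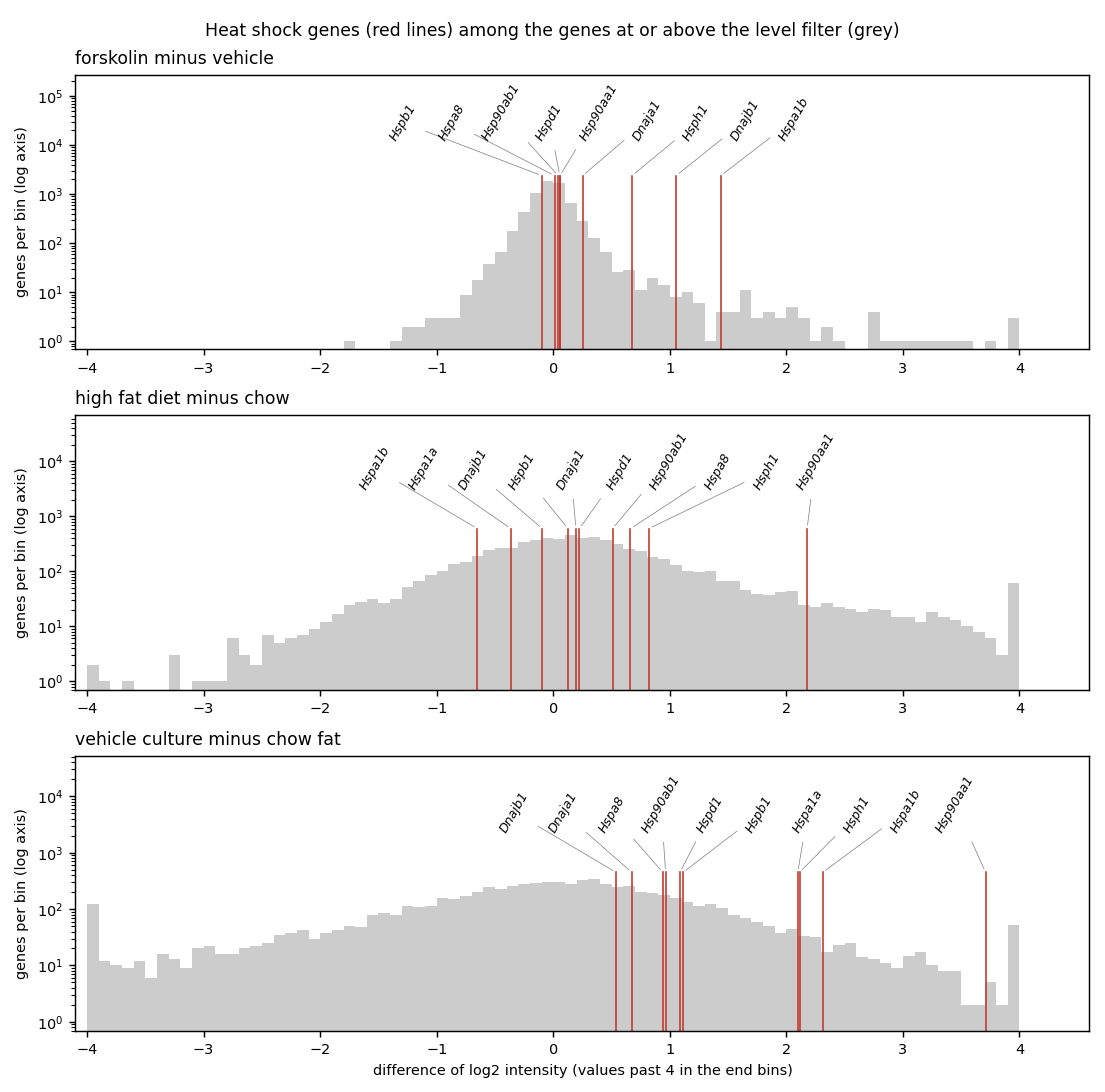
Differences of log2 intensity for the 10 genes (red lines, named) over the distribution of all genes at or above the level filter (grey; counts on a log axis), for forskolin minus vehicle, high fat diet minus chow and vehicle culture minus chow fat. Hspa1b, Dnajb1 and Hsph1 stand in the sparse right tail with forskolin, whereas most members lie in the bulk on the diet.

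The deposited table assigns genes a class for a predicted CRE, the DNA site of the cAMP factor CREB. Dnaja1 and Hsp90ab1 are classed CRE_TATA and Hspd1 CRE_NoTATA. Dnajb1, Hsph1, Hspa8, Hsp90aa1 and Hspb1 are classed others, and Hspa1a and Hspa1b have no class. The 3 members with a predicted CRE were 1.19-fold, 1.03-fold and 1.04-fold higher with forskolin. Of the 3 members past 1.5-fold, Dnajb1 and Hsph1 are classed others, and for Hspa1b the class is missing. The share of each class over all genes was not counted, and a link between class and forskolin difference was not tested. The sources used here do not say how the prediction was done.

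RefSeq promoter windows (build GRCm38.p6, 250 bases before and 50 from each annotated start on) were held for 7 members, in 12 windows. The sequences of Hspa1b and Dnajb1, the 2 members past 2-fold with forskolin, are shown with that of Hspa1a, the near copy of Hspa1b, because heat shock genes are known HSF1 targets and forskolin acts through cAMP. The stretch of Hspa1b lies at chr17:34959239-34959488 (minus strand), Hspa1a at chr17:34972157-34972406 (minus) and Dnajb1 at chr8:83607925-83608174 (plus). Only the 250 bases before the start are printed, and capitals mark a pair of alternating heat shock units, GAANNTTC or TTCNNGAA.
Hspa1b: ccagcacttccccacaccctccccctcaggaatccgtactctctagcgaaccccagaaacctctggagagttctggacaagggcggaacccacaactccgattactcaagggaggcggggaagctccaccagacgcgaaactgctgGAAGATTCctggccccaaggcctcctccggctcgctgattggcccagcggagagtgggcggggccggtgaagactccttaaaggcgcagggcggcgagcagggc
Hspa1a: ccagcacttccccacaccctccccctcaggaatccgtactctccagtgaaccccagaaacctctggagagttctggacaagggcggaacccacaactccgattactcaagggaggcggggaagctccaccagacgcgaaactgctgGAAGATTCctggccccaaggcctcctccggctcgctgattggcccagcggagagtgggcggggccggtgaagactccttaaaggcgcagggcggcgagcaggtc
Dnajb1: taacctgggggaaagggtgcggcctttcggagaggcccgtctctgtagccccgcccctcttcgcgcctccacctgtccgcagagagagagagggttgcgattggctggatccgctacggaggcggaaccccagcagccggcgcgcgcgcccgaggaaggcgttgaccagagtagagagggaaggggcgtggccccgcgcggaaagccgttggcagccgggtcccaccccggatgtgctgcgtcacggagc

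The windows of Hspa1b and Hspa1a were identical at 296 of 300 bases. Written as the Hspa1b base, the position from 1 at the 5′ end of the window and the Hspa1a base, the differences are T44C, C47T, G249T and T276C. Both carry the unit pair at the same place, 104 to 97 bases before the start. Neither window of Dnajb1 held such a pair. Its first window held a CRE core (TGACG on either strand) 11 to 7 bases before the start. Only exact matches inside the windows were sought, so the absence of a pair does not speak for imperfect units or for sites elsewhere.

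Short stretches around the unit pairs of the other members allow a comparison with those that differed little. Hsph1 has a pair at chr5:149636356-149636375 (minus) and a run of 3 units at chr5:149636282-149636306 (minus). Hspb1 has pairs at chr5:135887796-135887815 and chr5:135887816-135887835 (plus), Dnaja1 at chr4:40722338-40722357 (plus), and Hspd1 a longer run at chr1:55088053-55088082 (minus).
Hsph1 pair: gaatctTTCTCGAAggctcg
Hsph1 3 units: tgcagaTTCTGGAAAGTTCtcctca
Hspb1 first pair: acaagaGAAGTTTCcagatg
Hspb1 second pair: ggggcaGAACCTTCctggcc
Dnaja1 pair: cctctaGAAAATTCtacgag
Hspd1 run: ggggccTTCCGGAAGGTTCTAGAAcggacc

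A unit pair was found in 7 of the 12 member windows, belonging to 6 members of which Hspa1a and Hspa1b are near copies, and in 15.1% of all 32851 windows. A run of 3 units (GAANNTTCNNGAA or TTCNNGAANNTTC, which also counts as pairs) was found in 3 member windows, of Hsph1 and Hspd1, and in 0.603% of all windows. The windows of Hsph1 overlap and share theirs. The full CRE, TGACGTCA, was in none of the 12 member windows and in 1.79% of all. The core was found in 4 of the 12 windows, 1 each of Dnajb1, Dnaja1, Hspb1 and Hspd1, and in 20.8% of all windows. Both strands were searched throughout. Members with a unit pair were found on both sides, among those higher with forskolin (Hspa1b, Hsph1) and those nearly level (Hspb1, Dnaja1, Hspd1). A match is a run of letters in this window and not a measured binding site.

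**Figure D4:**
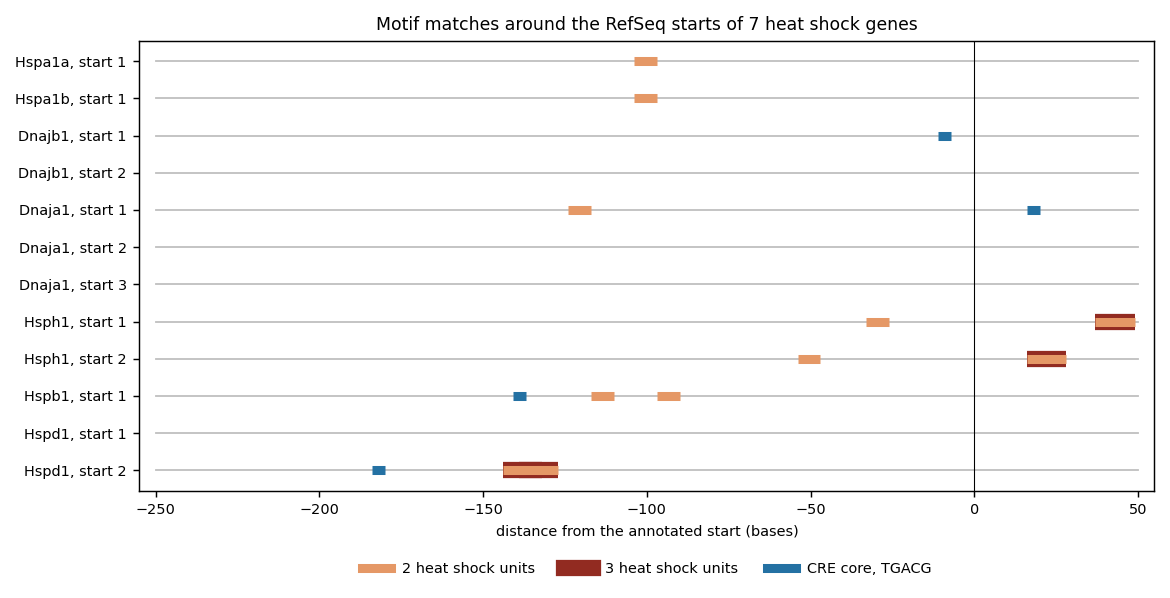
Matches around each annotated start of the 7 members with a promoter window, by distance from the start in bases, with upstream to the left of 0. Orange bars mark pairs of heat shock units, dark red bars runs of 3 units and blue bars CRE cores. Hspa1a and Hspa1b share their pair, and neither window of Dnajb1 has an exact one.

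In the diet experiment the members divided in another way. As deposited, high fat pads had higher HSP90, HSC70 and HSP110 transcripts and lower levels of both inducible HSP70 genes. Of the 10 members, 1 was at least 2-fold higher (Hsp90aa1) and none 2-fold lower, against 15.5% and 5.96% of 7203 compared genes. At 1.5-fold, 3 were higher (Hsp90aa1, Hsph1 and Hspa8) and 1 lower (Hspa1b), against 27.8% and 14.4%. These shares are near the background, so the counts show nothing particular to the heat shock genes.

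The background itself depended on the scaling between arrays, with 12.0% higher and 11.9% lower after quantile normalization. The members' median log2 difference was 0.21 as deposited, 0.00 after centring each array on its median and -0.14 after quantile normalization. The median of the compared genes was 0.17 as deposited, -0.04 after centring and -0.11 after quantile normalization. Over all genes, with no level filter, it was 0.05 as deposited, -0.15 after centring and -0.11 after quantile normalization. Centring moves every gene by the same amount, whereas quantile normalization moved the members' median somewhat further than that of the compared genes.

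Hsp90aa1 showed the widest diet difference of the members, at 2308 in high fat pads and 510.1 in chow pads, 4.52-fold higher. Its log2 difference was 2.18 as deposited, 1.97 after centring and 2.00 after quantile normalization. The probe set shared by Hsp90aa1 and similar loci read 1850 in high fat pads and 922.3 in chow pads, 2.01-fold higher. The authors' deposited table bounds this Hsp90aa1 fold by 3.34 and 6.83.

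Hsp90ab1 had 6075 in high fat pads and 4271 in chow pads by its brighter probe set, 1.42-fold higher. By that probe set its log2 difference was 0.51 as deposited and 0.17 after quantile normalization. Its second probe set read 3074 in high fat pads and 612.7 in chow pads, 5.02-fold higher. The probe sets thus share a direction and differ in size, whereas with forskolin they gave 1.03-fold and 1.02-fold. Hsph1 repeats this pattern, with 897.0 in high fat pads and 508.4 in chow pads (1.76-fold higher) by one probe set and 416.3 and 117.4 (3.54-fold higher) by the other. In both genes the probe set that was dimmer on chow gave the larger fold, and the cause was not tested.

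Hspa8 had 7667 in high fat pads and 4845 in chow pads, 1.58-fold higher. The 3 probe sets of Hspa8 and similar loci were 1.18-fold, 1.28-fold and 1.41-fold higher. After quantile normalization the log2 difference of Hspa8 was 0.30, against 0.66 as deposited.

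The inducible HSP70 genes went the other way. Hspa1b had 290.0 in high fat pads and 455.2 in chow pads, 1.57-fold lower. Its other probe sets were 1.99-fold lower (293.2 and 582.3) and 1.54-fold lower (956.9 and 1478). Hspa1a had 220.5 in high fat pads and 283.8 in chow pads, 1.29-fold lower, below the level filter. All 4 probe sets of the pair were lower in high fat pads as deposited, and the gene values were lower under both other scalings, with log2 differences of -0.94 for Hspa1b and -0.62 for Hspa1a after quantile normalization.

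The remaining members lay within 1.5-fold on the diet. Dnajb1 had 955.7 in high fat pads and 1020 in chow pads, 1.07-fold lower, and its second probe set was 1.04-fold higher. Dnaja1 was 1.14-fold higher by its main probe set and 1.03-fold lower by the other. Hspb1 was 1.09-fold higher at 2808 in high fat pads and 2572 in chow pads, and 1.06-fold lower by its second brightest probe set. Hspd1 was 1.17-fold higher, at 3822 and 3272. The signs of Dnaja1, Hspb1 and Hspd1 turned after quantile normalization, to -0.17, -0.23 and -0.12 on the log2 scale, so no direction is given for them. Dnaja1 and Hspb1 also turned after centring, to -0.01 and -0.08.

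Several neighbouring chaperone lists had medians above 0 in high fat pads relative to chow. TRiC, the cytosolic chaperonin of actin and tubulin, was 1.39-fold higher, with 1 subunit past 1.5-fold (Cct5, 3146 in high fat pads and 1972 in chow pads). Of its 9 subunits 9 were above chow as deposited and 5 after quantile normalization. Endoplasmic reticulum chaperones were 1.65-fold higher, with 8 of 13 at least 1.5-fold higher and 1 lower, beside 27.8% and 14.4% of all compared genes. Among them Sdf2l1 was 5.84-fold, the disulfide isomerase gene Pdia3 2.53-fold and Pdia6 2.20-fold higher. Prefoldin genes had a median log2 difference of 0.59 and mitochondrial chaperones were 1.11-fold lower. The sign of these 4 medians was the same after centring and after quantile normalization. Hspe1, the HSP10 partner of Hspd1, was 1.51-fold higher.

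Of 25 cochaperones, 7 were at least 1.5-fold higher and 2 lower, shares near or below the 27.8% and 14.4% of all compared genes. Ahsa1, which speeds the HSP90 ATPase, was 2.11-fold higher and the HSP70 exchange factor gene Hspbp1 2.19-fold higher. Fkbp5, an HSP90 partner of steroid receptors and a glucocorticoid target, was 2.66-fold lower, and Bag4 4.39-fold lower. In the small heat shock protein list Cryab was 2.60-fold higher and Hspb7 2.38-fold higher, and Hspb8 was 1.41-fold lower. The small heat shock protein list had a median log2 difference of 0.07 as deposited, which quantile normalization turned to -0.06, so no direction is given for it.

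Other cell markers moved with the diet. The 8 measured macrophage markers summed to 46654 in high fat pads and 13764 in chow pads, all 8 at least 1.5-fold higher. The 2 measured T cell markers summed to 1618 in high fat pads and 431.5 in chow pads, and the 7 adipocyte markers to 52277 and 61374, a gap carried mostly by Cfd (5663 and 12082). Of 6 fibroblast markers 4 were at least 1.5-fold higher, with sums of 32376 and 23537. All 4 measured mesothelial markers (993.8 and 2140) and 4 of 6 smooth muscle markers (7295 and 8203) were at least 1.5-fold lower. The 6 endothelial markers shared no direction. Of these, 3 were at least 1.5-fold lower, and Pecam1 (1.25-fold), Tie1 (1.27-fold) and Cldn5 (1.20-fold) were higher. Among 18 immediate early genes, Atf3 was 20.9-fold and Fos 11.8-fold higher in high fat pads. Of the 18, 7 were 2-fold higher or more and none 2-fold lower, against 15.5% and 5.96% of all compared genes. The part of these markers and early genes in the diet differences of the heat shock genes was not tested. Probe sets that report RNA degradation were not analysed here.

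**Figure D5:**
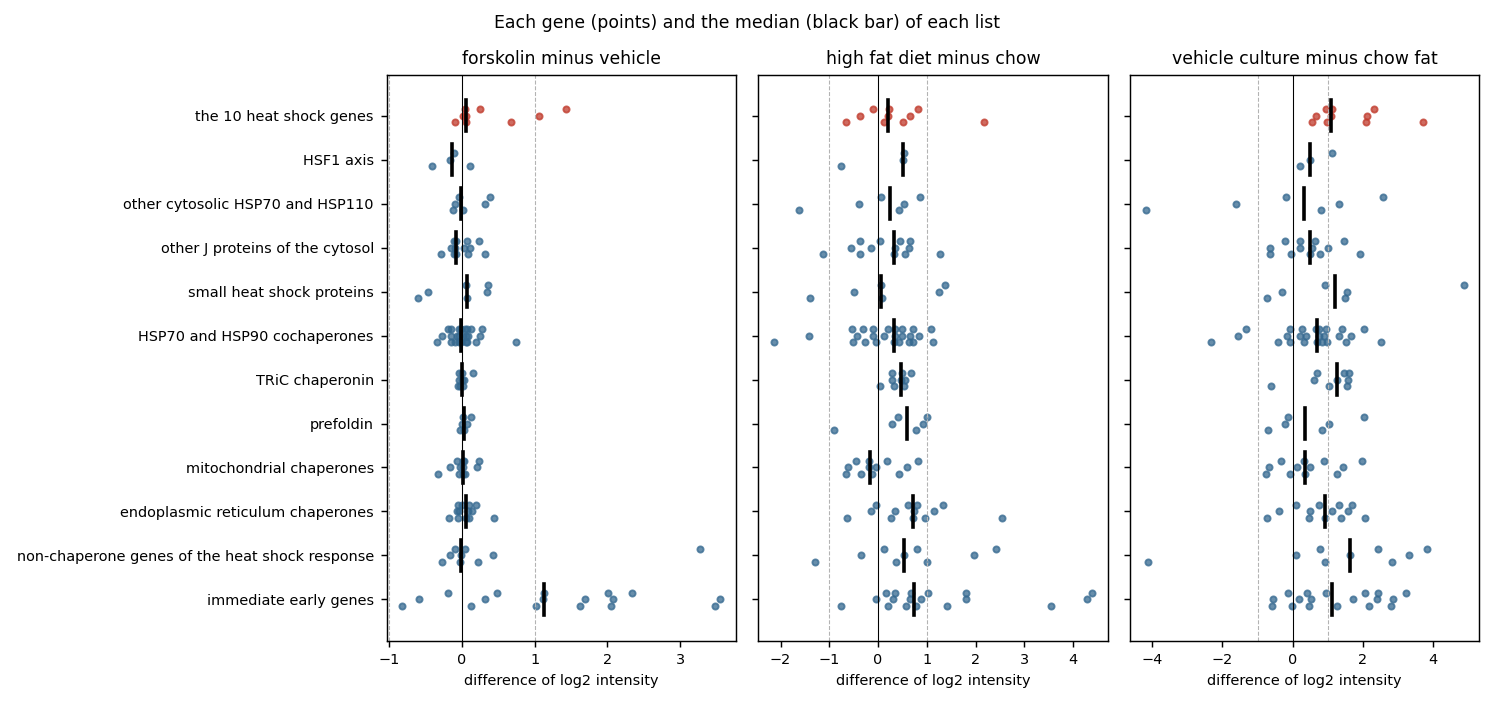
Differences of log2 intensity for each gene (points) and the median (black bar) of the 10 heat shock genes (red) and of 11 related lists (blue), for forskolin minus vehicle, high fat diet minus chow and vehicle culture minus chow fat, with dashed lines at 2-fold. With forskolin all lists except the immediate early genes centre near 0.

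Set against whole chow fat, the vehicle cultures had higher intensity for the main probe set of every member. This sets cultured cells beside a tissue, arrays of separate experiments whose joint scaling is unknown here. Of 10 members, 6 were at least 2-fold higher in vehicle culture and none 2-fold lower, against 17.2% and 17% of 7403 compared genes. At 1.5-fold, 9 were higher and none lower, against 28.9% and 26.7%. After centring, 23.5% of genes were 2-fold higher and 13.1% lower, and after quantile normalization 15.6% and 18.4%. The members at least 2-fold higher numbered 8 after centring and 4 after quantile normalization. Their median was 2.14-fold higher, and 2.55-fold and 1.75-fold under those scalings. Beside this, the 6 fibroblast markers summed to 2961 in vehicle culture and 23537 in chow fat and the 7 adipocyte markers to 47210 and 61374. Of the adipocyte markers 3 were at least 2-fold lower in vehicle culture, namely Lipe (7.17-fold), Pparg (4.70-fold) and Cidec (2.94-fold). The part of cell composition in the members' differences was not tested.

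Hsp90aa1 was 13.1-fold higher in vehicle culture (6673) than in chow fat (510.1), rank 59 of the 7403 compared genes. Hspa1b was 4.97-fold higher (2261 and 455.2), Hsph1 4.33-fold (2199 and 508.4) and Hspa1a 4.28-fold (1215 and 283.8). Hspb1, Hspd1, Hsp90ab1 and Hspa8 were 2.16-fold, 2.12-fold, 1.95-fold and 1.92-fold higher. Dnaja1 was 1.60-fold higher by its main probe set and 1.62-fold lower by its second, and Dnajb1 was 1.45-fold higher by one and 3.51-fold by the other. The second probe set gave a larger fold for Hsp90ab1 (11.8-fold higher) and Hsph1 (13.7-fold higher). It gave a smaller one for Hspa1b (3.11-fold higher), as did the second brightest of Hspb1 (1.79-fold higher). The probe set shared by Hsp90aa1 and similar loci was 4.98-fold higher. How far Hsp90aa1 and Hsp90ab1 stood apart thus depended on the probe set. Of the 20 member probe sets, 18 were higher on every measured culture array than on both fat arrays, the exceptions being the second of Dnaja1 and the dimmest of Hspb1. How many of all probe sets did so was not counted, so this cannot be called particular to the heat shock genes.

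Across the 4 arrays Hspa1b had the widest range of the 9 members measured on all, 21.1-fold between forskolin culture and high fat tissue. Hsp90aa1 followed at 13.6-fold and Hsph1 at 6.91-fold, and Dnaja1 had the narrowest at 1.90-fold. The order for Hspa8, Dnaja1, Hsp90aa1, Hsp90ab1, Hsph1 and Hspd1 was forskolin, vehicle, high fat and chow from high to low. For Hspa1b and Dnajb1 chow stood above high fat, and for Hspb1 vehicle stood above forskolin. The neighbours in these orders that differ by under 1.1-fold, such as forskolin and vehicle for Hspa8, cannot be ordered with 1 array each.

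Genes were ranked by how closely their profile followed that of Hspa1b, as the Euclidean distance between gene-centred log2 intensities over the 4 arrays, among 6047 other genes at or above the level filter in all comparisons. The nearest were Phlda1 at 0.92, then Slco2a1 at 0.96, P4ha2, Adamts1 at 1.11, Tlcd2 at 1.17 and Ampd3 at 1.22. Phlda1 had 6257 with forskolin, 3579 with vehicle, 711.5 in high fat pads and 862.5 in chow pads. Among the members the nearest to Hspa1b was Hsph1, at a distance of 1.76, followed by Dnajb1 at 2.29. P4ha2 had 3354 with forskolin and 3248 with vehicle, so a near profile over 4 arrays does not require a similar forskolin difference.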

How the data were processed

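RNA of 4 mouse samples was labelled with biotin by Affymetrix protocols, per the labels' protocols. The values the authors deposited are linear expression intensities for each probe set; the sources used here do not name their software or normalization. Per the file headers, the deposited table also holds fold changes between paired arrays with lower and upper bounds (their confidence level is unknown here), signed values that were turned into ratios, and a CRE class, a text label. Intensities in both files were equal in 90504 of 90504 cells.

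Values under the 10th percentile of an array were set to it before log2. Of several probe sets of a gene, the brightest on average among those with the fewest empty cells was used. Names came through gene IDs from a RefSeq table (GRCm38.p6); 482 probe sets with several genes and 769 with none were left out of gene values. Differences were forskolin minus vehicle, high fat diet minus chow, and vehicle culture minus chow fat. List counts cover all measured members of a list, whatever their level. The 11 pathway and 9 marker lists name up to 4 members each with the largest absolute difference at or above the level filter, and genes set beside a member; the values of every member are given. Members were picked by gene name and lists by pathway, both with earlier results of these data known. Python 3.11.15, pandas 2.3.3 and NumPy 2.4.6 were used.

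Alternatives were median centring, quantile normalization, 16 added before log2, a floor at the 20th percentile and the median over probe sets. Further ones were the authors' folds, fold thresholds of 1.5 and 3, and no level filter or the 75th percentile. Probe sets with the suffix _s_at or _x_at were also left out where a gene had another. Hspa8 had only 1 probe set, an _x_at one, which therefore stayed in. Every gene value of Hspa8 rests on it.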

Additional observations from a re-analysis of the deposited data

How the results depend on the processing

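With 1 array per group no array could be left out, and that number limits what can be resolved. No paired analysis was possible because each group held 1 array. With forskolin, 1 member in place of 2 was 2-fold higher after quantile normalization, where Dnajb1 had a log2 difference of 0.96, and 0 at a threshold of 3-fold. On the diet, 3 in place of 1 were 2-fold higher with the median over probe sets (Hsp90ab1 then at 1.42 on the log2 scale) and 3 at 1.5-fold, where 1 was 1.5-fold lower. Hsp90ab1 was also larger in vehicle culture against chow fat with the median over probe sets, at 2.26. The other 67 summary values stayed within 1.5 times the count or within the median gap between probe sets of a gene (0.21, 0.72 and 1.29 on the log2 scale for forskolin, diet and culture). Part of the 67 could hardly move. The floor at the 20th percentile and leaving out suffixed probe sets changed no member value. The authors' folds matched the main values up to rounding. In all the alternatives no member with a 2-fold difference changed sign. Dnaja1 in vehicle culture against chow fat had -0.01 with the median over probe sets. The diet median of the members was 0.21 as deposited and -0.14 after quantile normalization. Without the level filter 1.93% of genes were 2-fold higher and 1.09% lower with forskolin, and at the 75th percentile 0.0588% were lower. In the authors' deposited table the bounds lay on both sides of 1 for 7 of 18 member probe sets with forskolin and 6 of 20 on the diet. The share over all probe sets was not counted, so these counts show nothing particular to the heat shock genes. The bounds also rest on 1 array per group.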

Other observations

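Cultured vehicle adipocytes and whole chow fat also differed in chaperone genes outside the 10 members. The small heat shock protein gene Hspb7 had an intensity of 5489 in vehicle culture and 188.6 in chow fat, 29.1-fold higher. Stip1, which bridges HSP70 and HSP90, was 5.68-fold higher in vehicle culture, the HSP110 family gene Hspa4l 5.99-fold, the prefoldin gene Pfdn2 4.05-fold and the mitochondrial HSP70 gene Hspa9 3.90-fold. Some genes of the same lists went the other way. Of 25 cochaperones, 14 were at least 1.5-fold higher and 3 lower. The 3 were Bag4 (263.2 in vehicle culture and 1317 in chow fat), Fkbp5 (2.95-fold lower) and Cdc37l1 (2.51-fold lower). Among 6 prefoldin genes, 3 were at least 1.5-fold higher and 1 lower, namely Uri1 (1.62-fold). Among 12 mitochondrial chaperones, 4 were higher and 2 lower at that threshold. TRiC was 2.40-fold higher at its median, with 8 of 9 subunits at least 1.5-fold higher and the other, below the level filter, lower. Among the 7403 compared genes, 28.9% passed 1.5-fold upward in vehicle culture and 26.7% downward. For 2-fold the shares were 17.2% upward and 17% downward, so large single-gene differences were common in this comparison. Hspa12b, an HSP70 relative known from endothelial cells, was 18.2-fold lower in vehicle culture (45.93 and 836.2), beside endothelial markers of which all 6 were at least 2-fold lower. Fibroblast markers summed to 2961 in vehicle culture and 23537 in chow fat. These arrays come from separate experiments, and the part of cell composition in these values was not tested. The TRiC median was 1.52 on the log2 scale after centring and 0.96 after quantile normalization, against 1.26 as deposited.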
